A study of Mus musculus with 7 samples.

Results

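The immunity-related GTPases (IRGs) were examined in sorted mouse Paneth cells (PCs) after TNF, the cytokine tumour necrosis factor, had been injected. PCs line the bottom of the crypts of the small intestine and release granules with antimicrobial proteins. The 7 genes Irgm1, Irgm2, Igtp, Ifi47, Iigp1, Tgtp1 and Tgtp2 were taken by name, with no threshold on their values but with earlier results of these data known, from the 55414 gene identifiers of the count table. All 7 were among the 14329 genes with enough counts to be tested. The PCs came from C57BL/6J mice and were collected with a cell sorter 15 h after an injection of TNF (4 libraries) or of phosphate-buffered saline (PBS, 3 libraries). Every library came from its own mouse, no genetic change is named in the labels, and the time is the same in both groups. The dose, age and sex of the mice, the sorting markers and the days of sorting are unknown here. Total counts ranged from 15511455 to 19193721 per library.

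IRGs join a GTPase domain to a helical domain, and most of them are made by cells exposed to interferons, above all interferon-gamma. They gather on the membrane of vacuoles that hold intracellular parasites and bacteria, such as Toxoplasma and Chlamydia, and help to break that membrane. Irgm1, Irgm2 and Igtp (also called Irgm3) form the GMS group, named after a Gly-Met-Ser motif in the nucleotide-binding loop. They sit on the cell's own membranes and hold the other members in the inactive, GDP-bound form. Iigp1 (Irga6), Tgtp1 and Tgtp2 (Irgb6) and Ifi47 (Irgd) belong to the GKS group, with Gly-Lys-Ser in that loop, which loads onto the vacuole. In PCs, loss of Irgm1 is known to disturb the secretory granules.

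Interferon signals reach such genes through short promoter sequences, so the promoters of the members were read for them. An interferon-gamma activated site (GAS, TTCNNNGAA) is known from genes that answer interferon-gamma. The core of an interferon-stimulated response element (ISRE, here GAAA, any 2 bases and GAAA again) is known to bind interferon regulatory factors (IRFs). RefSeq promoter sequences (build GRCm38.p6, 250 bases before to 50 bases after the start, 300 bases in all) were found for 6 of the 7 members. Both strands were searched. The following 5 stretches hold every match found in these 6 promoters, 5′ to 3′ on the gene's strand, with the GAS and ISRE core matches in capitals.
Irgm1, chr11:48871425-48871465, minus strand: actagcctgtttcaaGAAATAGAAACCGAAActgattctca
Irgm2, chr11:58214887-58214932, plus strand: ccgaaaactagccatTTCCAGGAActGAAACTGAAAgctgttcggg
Igtp, chr11:58199496-58199541, plus strand: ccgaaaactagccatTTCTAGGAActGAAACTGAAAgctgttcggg
Tgtp1, chr11:48992304-48992349, minus strand: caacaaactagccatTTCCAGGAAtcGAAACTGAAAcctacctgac
Tgtp2, chr11:49064263-49064308, minus strand: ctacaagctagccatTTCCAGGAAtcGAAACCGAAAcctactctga

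The stretches of Irgm2, Igtp, Tgtp1 and Tgtp2 share 1 arrangement, in which a GAS is followed after 2 bases by an ISRE core. Irgm1 has no GAS, and its capitals are 2 overlapping ISRE core matches. The promoter of Ifi47 held neither motif in this window. An ISRE core was present in 5 of the 6 member promoters and in 3.44% of the 32851 promoters of the RefSeq table. A GAS was present in 4 of the 6, against 8.30% of all promoters, and both together were present in 0.454% of all promoters. The arrangement with exactly 2 bases between the motifs, looked for after the member promoters had been read, was present in 5 promoters of the whole table. These were the 4 member promoters above and that of Gm12185, another gene of the IRG family on chromosome 11. The NF-kB motif, searched with a 10-base consensus as the sequence that NF-kB subunits bind, was in none of the 6 and in 8.46% of all promoters. At that share, 6 promoters are too few for an absence to be read. A match is a description of the letters and does not show that a factor binds there.

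**Figure D1:**
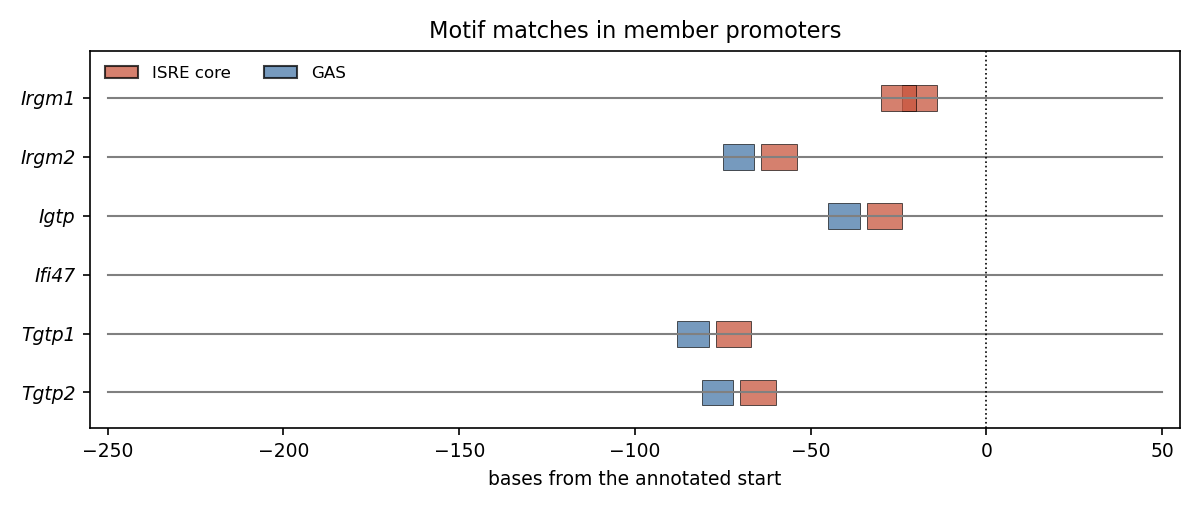
The horizontal axis gives the distance in bases from the annotated start of each gene, with 1 grey line per promoter, red boxes for ISRE core matches and blue boxes for GAS matches. The GAS and ISRE core stand side by side in Irgm2, Igtp, Tgtp1 and Tgtp2, Irgm1 has 2 overlapping ISRE cores from -30 to -15, and Ifi47 has no box.

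The promoters were also compared over all 250 bases before the start, motifs included. They were 90.2% identical between Igtp and Irgm2 over 215 aligned bases, and 77.0% identical between Tgtp1 and Tgtp2 over 222 aligned bases. Every other pair was 55.9% to 70.4% identical.

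The genes lie in a few clusters. In GENCODE M39 (GRCm39), 6 members are on chromosome 11 and Iigp1 (ENSMUSG00000054072) is on chromosome 18, from 60506680 to 60525706 on the plus strand. Irgm1 (ENSMUSG00000046879) spans 48752795 to 48763164 on the minus strand of chromosome 11. Tgtp1 (ENSMUSG00000078922) spans 48876154 to 48884999 and Tgtp2 (ENSMUSG00000078921) spans 48948021 to 48955033, both on the minus strand. Ifi47 (ENSMUSG00000078920) follows on the plus strand, from 48967412 to 48987813. Farther along the chromosome, Igtp (ENSMUSG00000078853, 58089840 to 58098417) and Irgm2 (ENSMUSG00000069874, 58090444 to 58113615) overlap on the plus strand.

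After TNF, 6 of the 7 members rose and none fell (adjusted p under 0.05 in the quasi-likelihood test of edgeR, two-sided, Benjamini-Hochberg adjustment over all 14329 genes). Igtp rose 4.28-fold, Ifi47 2.79-fold, Irgm1 1.82-fold and Irgm2 1.81-fold, while Iigp1 and Tgtp1 rose from levels near 0. Tgtp2 did not pass the test. TNF changed a large part of the transcriptome: 29.5% of all tested genes were called higher and 30.1% lower, 59.6% in all. For Iigp1 and Tgtp1 the counts that admitted the gene to the test were those of the TNF libraries, and Tgtp2 did not meet the count filter in the PBS libraries alone either. The 4 members that met it at rest, Irgm1, Irgm2, Igtp and Ifi47, were all higher. This count, rather than 6 of 7, is the nearer one to set beside the background. The shares over all tested genes still include genes that 1 group alone admitted, so the match is not exact. The median log2 fold change was 1.48 over the 7 members and 0.0017 over all tested genes. The first median includes Iigp1 and Tgtp1, which the TNF libraries admitted. The 4 members that met the filter at rest had log2 fold changes from 0.86 to 2.10. The CPM ranges of the groups did not overlap for the same 6 members, all of them higher after TNF, as for 29.9% of all tested genes. These 6 are Iigp1, Tgtp1 and the 4 members that met the filter at rest. Values in CPM are counts scaled to 1e6 per library, on library sizes corrected with TMM (trimmed mean of M-values). These are bulk samples, so a change in the share of cells that express a gene and a change in RNA per cell cannot be told apart.

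**Figure D2:**
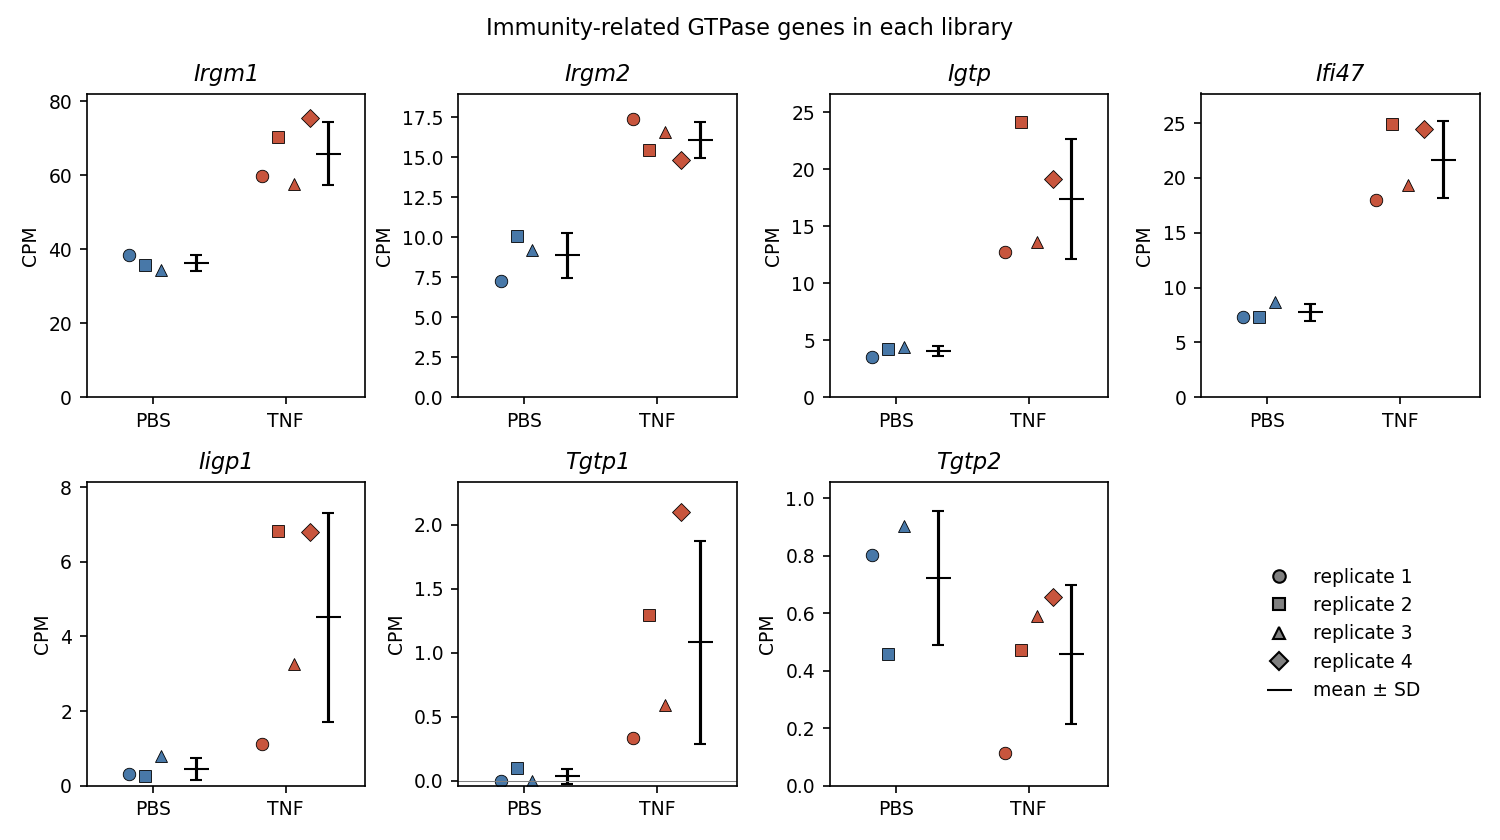
Each panel shows 1 gene, with the CPM of every PBS library in blue and every TNF library in red, a marker shape per replicate, and the mean ± SD in black; the vertical axes are linear and differ between panels. The PBS and TNF points are apart in all genes but Tgtp2, and the TNF points of Iigp1 and Tgtp1 are widely spread.

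Irgm1, which regulates the other members and takes part in autophagy and mitochondrial upkeep, was the most abundant member. Its counts were 623, 703 and 648 after PBS and 1070, 1194, 1074 and 1152 after TNF. The groups did not overlap, at 34.4 to 38.5 CPM against 57.5 to 75.4 CPM. The mean level was 36.2 ± 2.11 CPM at rest (SD, n = 3) and 65.8 ± 8.50 CPM after TNF (SD, n = 4), as it is for the members below. The log2 fold change (± SE throughout) was 0.86 ± 0.12, at an edgeR adjusted p of 3.05e-05.

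Irgm2, a GMS protein of the Golgi membranes, had counts of 118, 198 and 174 after PBS and of 311, 262, 310 and 227 after TNF. Every TNF library was above every PBS library, and the TNF libraries lay close together, with the highest 1.17 times the lowest in CPM. The mean rose from 8.87 ± 1.43 to 16.1 ± 1.15 CPM, a log2 fold change of 0.86 ± 0.17 (edgeR adjusted p = 0.000508). In the edgeR test against a 1.5-fold change, glmTreat, Irgm2 narrowly missed the threshold, with an adjusted p of 0.0509.

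Igtp, the GMS protein of the endoplasmic reticulum, had the lowest resting level of the GMS group and the largest rise in it. Its counts were 57, 83 and 83 after PBS and 228, 409, 255 and 292 after TNF. The lowest TNF library, at 12.8 CPM, was well above the highest PBS library, at 4.40 CPM. The log2 fold change was 2.10 ± 0.24 (edgeR adjusted p = 5.50e-06), from 4.05 ± 0.465 to 17.4 ± 5.27 CPM. Igtp and Irgm2 share 162 exon bases, and 4.37% and 5.83% of their 75-base windows, respectively, occur in another annotated transcript as well. That overlap leaves more than 90% of each gene's windows as its own.

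Ifi47 is a GKS protein. Its counts were 119, 143 and 163 after PBS and 321, 423, 361 and 374 after TNF. The groups were separate, from 7.28 to 8.64 CPM and from 18.0 to 24.9 CPM. The mean rose from 7.76 ± 0.767 to 21.7 ± 3.55 CPM, a log2 fold change of 1.48 ± 0.17 (edgeR adjusted p = 5.47e-06). It is also the member whose promoter window held neither of the motifs above.

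Iigp1, the GKS member whose structure and vacuole loading are best described, was close to silent at rest. Its counts were 5, 5 and 15 after PBS and 20, 116, 61 and 104 after TNF. Every TNF library was above the PBS libraries, but TNF replicate 1, at 1.12 CPM, was near PBS replicate 3, at 0.795 CPM. The mean was 0.453 ± 0.298 CPM after PBS and 4.51 ± 2.81 CPM after TNF, and the highest TNF library was 6.11 times the lowest. The log2 fold change was 3.28 ± 0.66 (edgeR adjusted p = 0.000875). Leaving out PBS replicate 3 gave 3.97, a fold more than 1.5 times as large.

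Tgtp1 and Tgtp2 encode the Irgb6 proteins, early arrivals on the vacuole, and are near-identical copies. Tgtp1 had 0, 2 and 0 counts after PBS and 6, 22, 11 and 32 after TNF. Tgtp2 had 13, 9 and 17 counts after PBS and 2, 8, 11 and 10 after TNF. Tgtp1 was thus higher in every TNF library than in any PBS library, while Tgtp2 overlapped between the groups. The Tgtp1 level per library was 28.2 times as high after TNF (95% exact interval 7.53 to 237.5, counting error only; edgeR adjusted p = 0.00202). Without PBS replicate 2, which holds both of its PBS counts, Tgtp1 is at least 12.1-fold higher against a floor of 3 counts over the PBS group. Without PBS replicate 3 its ratio was 18.5. Tgtp2 went from 0.721 ± 0.233 to 0.457 ± 0.242 CPM, and its log2 fold change was -0.65 ± 0.65 (edgeR adjusted p = 0.406).

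The split between these 2 genes is uncertain, because most of their sequence is shared. The longest open reading frames, of 1248 bases or 415 codons each, were 99.7% identical, whereas any other pair of members was 61.8% to 74.5% identical. Of all 75-base windows in their annotated transcripts, 78.7% for Tgtp1 and 81.4% for Tgtp2 occur in another annotated gene, in most cases the partner, and for 150-base windows the shares were 66.6% and 68.4%. How the authors treated reads that match both is not known here. Tgtp1 held 2 of the 41 counts of the pair after PBS (4.88%, 95% exact Clopper-Pearson interval 0.596% to 16.5%) and 71 of 102 after TNF (69.6%, 59.7% to 78.3%). These intervals treat the counts as independent and cover counting error only. Summed to 1 gene, the pair stood at 0.755 ± 0.176 CPM at rest and at 1.54 ± 0.972 CPM after TNF. The sum did not pass the test, at 1.01 ± 0.60 on the log2 scale (edgeR adjusted p = 0.162). Tgtp1 also shares 317 exon bases with Gm12185.

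**Figure D3:**
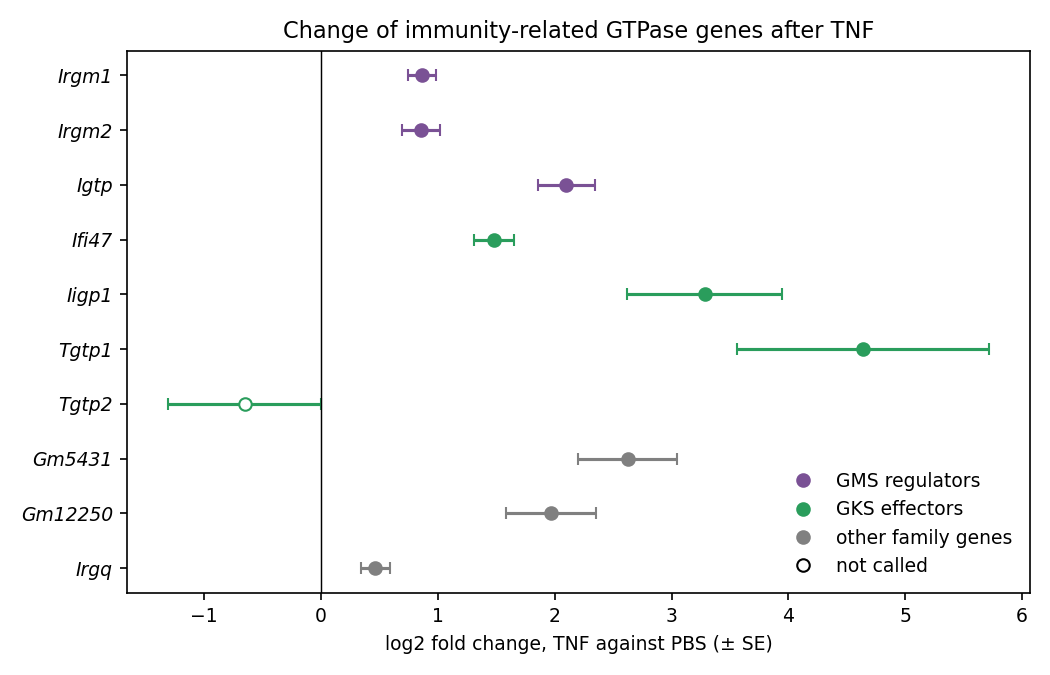
The horizontal axis gives the fitted log2 fold change of TNF against PBS, with bars for ± SE, for the 7 members and the 3 other tested genes of the family; filled points passed the test and the open point did not. Tgtp2 is the only open point, and the bars widen from Irgm1, at 0.86 ± 0.12, to Tgtp1, whose fitted value rests on 2 PBS counts.

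Levels were compared between genes per length, as RPKM (CPM per kb of annotated exon). At rest the order was Irgm1 (5.70), Ifi47 (2.73), Irgm2 (2.37), Igtp (0.889), Tgtp2 (0.245), Iigp1 (0.0712) and Tgtp1 (0.0104). Only Ifi47 and Irgm2 overlapped as neighbours in this order. The places of Tgtp1 and Tgtp2, here and after TNF, are uncertain. Most of their sequence is shared, and how such reads were treated is not known. After TNF the order was Irgm1 (10.4), Ifi47 (7.62), Irgm2 (4.30), Igtp (3.82), Iigp1 (0.708), Tgtp1 (0.330) and Tgtp2 (0.155). Irgm2 and Igtp then overlapped, as did Iigp1 with Tgtp1 and Tgtp1 with Tgtp2. Among all tested genes, Irgm1 was above 69.6% at rest and above 80.6% after TNF, and Igtp went from above 26.2% to above 58.5%. Iigp1 went from above 2.30% to above 24.7%, so it stayed in the lower part of the range.

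The summed level of the 7 members was even between mice at rest and wider after TNF. It was 57.8, 58.2 and 58.3 CPM in the PBS libraries and 109.6, 143.5, 111.5 and 143.4 CPM in the TNF libraries. Of these reads, not corrected for gene length, Irgm1 took 62.3% ± 3.93 at rest (SD, n = 3) against 52.0% ± 2.32 once TNF was given (SD, n = 4). Its share was lower in every TNF library than in any PBS library.

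Within the TNF group the members did not all follow the same order of libraries. In CPM, TNF replicates 2 and 4 were both above replicates 1 and 3 for 5 members, namely Irgm1, Igtp, Ifi47, Iigp1 and Tgtp1. This order held for 17.8% of all tested genes. Irgm2 had the reverse order, with replicates 2 and 4 both below 1 and 3, as had 18.8% of all tested genes. The order was noticed in the data, and the members share these libraries. With scaling by total counts only, Irgm1 lost it and the other 4 kept it. The summed level of 10 PC marker genes was also higher in TNF replicates 2 and 4, at 254417 and 320858 CPM, than in replicates 1 and 3, at 176278 and 223484 CPM. Its part in the order of the members was not tested.

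**Figure D4:**
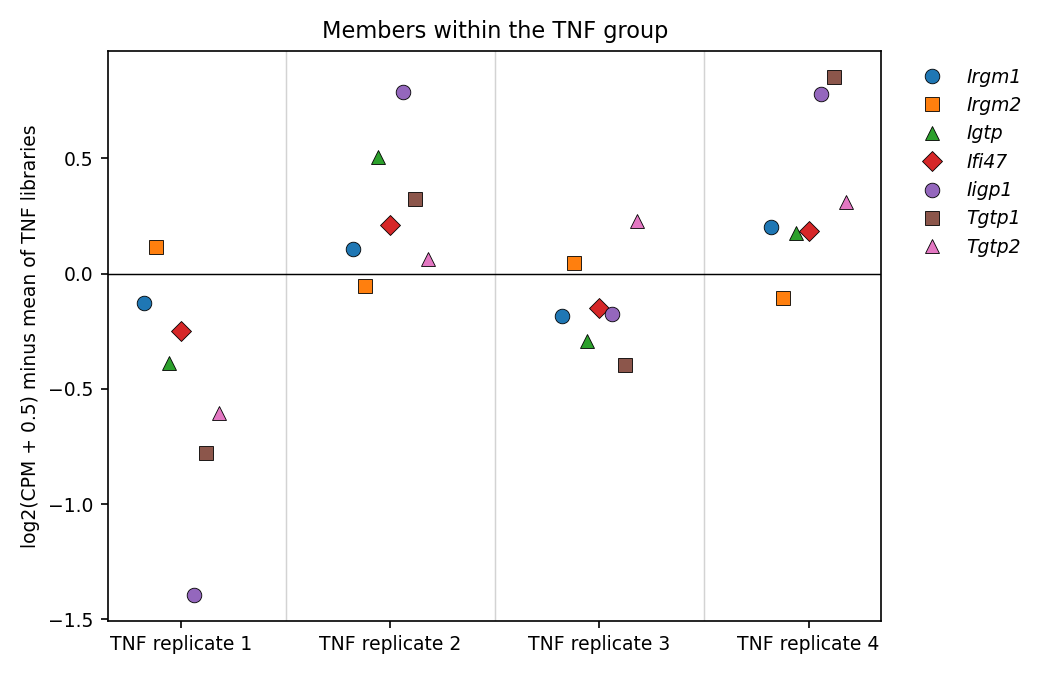
The vertical axis gives log2(CPM + 0.5) of each member in a TNF library minus its mean over the 4 TNF libraries, with 1 column per library and 1 symbol per gene. Iigp1 has the widest spread, from -1.39 in replicate 1 to 0.79 in replicate 2, and Irgm2 lies on the opposite side of 0 from Irgm1, Igtp, Ifi47, Iigp1 and Tgtp1 in every library.

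Most other genes of the IRG family were sparse in these PCs, but Irgq was not. Of 12 other family genes in the table, 4 had 0 counts in every library, 5 had too few counts to be tested and 3 were tested, and all 3 were called higher, Gm5431 with too few PBS counts to meet the filter at rest. Gm12250, also known as Irgb10, which acts on bacterial membranes, had counts of 11, 26 and 40 after PBS and 88, 94, 78 and 110 after TNF. It rose from 1.37 ± 0.722 to 5.46 ± 1.29 CPM, a log2 fold change of 1.97 ± 0.38 (edgeR adjusted p = 0.000544). Gm5431, which lies next to Irgm1, had counts of 9, 24 and 12 after PBS and 59, 98, 73 and 111 after TNF, a log2 fold change of 2.63 ± 0.42 (edgeR adjusted p = 0.000111). Irgq, a distant relative on chromosome 7, changed least, from 39.5 ± 6.29 to 54.5 ± 4.74 CPM, a log2 fold change of 0.46 ± 0.13 (edgeR adjusted p = 0.0056). With scaling by total counts only, Irgq was at 0.31 and no longer called (adjusted p = 0.123). The detected but untested genes were Gm12185, Irgc, Iigp1c, F830016B08Rik and 9930111J21Rik2. Of these, Gm12185 had the most counts, 18 after PBS and 31 after TNF, with overlapping groups.

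Genes from outside the IRG family that lie within 100 kb of a member were counted too. There were 28, of which 11 were tested, 5 were higher and 2 were lower. Among the 9 that met the count filter at rest, 3 were higher and 2 lower, where 29.5% and 30.1% of all tested genes were. The largest rise, noted after the values were seen, was that of Or2v1, an olfactory receptor gene, from 4, 2 and 2 counts to 35, 102, 47 and 37. Or2v1 shares 111 exon bases with Ifi47 on the same strand, so the gene these reads came from is uncertain.

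The guanylate-binding proteins (GBPs), the other large family of interferon-induced GTPases that coat such vacuoles, were set beside the IRGs in the same libraries. The table held 11 GBP genes, of which 8 were tested and called higher. For 4 of these, Gbp4, Gbp5, Gbp6 and Gbp8, the PBS counts alone would not have met the count filter, so that a test was reached through the TNF libraries. The other 4 met it at rest and were also higher. Of the 3 untested genes, Gbp2b had no counts, Gbp10 went from 0 to 19 counts per group, and Gbp11 went the other way, from 15 to 0. Apart from Gbp2 and Gbp5, these GBP genes are named after their values were seen. Gbp2 went from 22, 28 and 12 counts to 972, 2738, 1860 and 2867, a log2 fold change of 6.78 ± 0.65 (edgeR adjusted p = 0.000123). Gbp5, which gave the largest rise of the list, had 0 counts in all PBS libraries and 428, 847, 563 and 810 after TNF, at least 702-fold higher against a floor of 3 counts over the PBS group. The summed GBP level was 10.4 to 11.8 CPM at rest and 133.8 to 315.8 CPM after TNF. Every TNF library was far above the PBS libraries in this sum, with replicate 1 the lowest, as it was for the sum of the IRG members.

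The genes that carry an interferon signal were followed from ligand to nucleus. None of the 9 interferon genes of the list, Ifng among them, had a count in any library, and cells outside the sorted PCs were not measured. The receptor genes were mostly higher, 5 of 6, with a median log2 fold change of 1.30. Ifngr1 and Ifngr2, the chains that bind interferon-gamma and pass on its signal, went from 47.1 ± 2.49 to 200 ± 13.2 CPM and from 52.8 ± 1.41 to 299 ± 39.5 CPM. Their log2 fold changes were 2.08 ± 0.11 and 2.50 ± 0.13 (edgeR adjusted p = 2.61e-09 and 2.85e-09). The exception was Il10rb, a chain shared with other receptors, at 0.14 ± 0.15.

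Of 14 kinases and transcription factors of the pathway, 10 were higher and 2 lower. All but Batf2, named after its values were seen, met the count filter at rest, and of these 13 genes 9 were higher. Irf1, which binds ISRE-like sites, rose from 58.2 ± 5.81 to 101 ± 2.73 CPM, a log2 fold change of 0.79 ± 0.10 (edgeR adjusted p = 1.39e-05). Irf9, the DNA-binding part of the ISRE complex, rose by 1.37 ± 0.14 on the log2 scale and Irf8 by 0.53 ± 0.13 (edgeR adjusted p = 1.49e-06 and 0.00291). Nlrc5, the activator of MHC class I genes, had the largest rise of the list, 1.78 ± 0.42 (edgeR adjusted p = 0.00225). Irf2, known as an antagonist of Irf1, had the largest fall, from 42.4 ± 4.90 to 12.9 ± 2.50 CPM, a log2 fold change of -1.72 ± 0.15 (edgeR adjusted p = 4.76e-07). The other lower gene was the receptor kinase Tyk2, named after its values were seen, at -1.07 ± 0.12.

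Feedback inhibitors of the pathway were higher in 4 of 5 cases, with a median log2 fold change of 3.02. Socs1, which blocks Janus kinases, went from 26, 41 and 29 counts to 242, 278, 236 and 220, a log2 fold change of 3.02 ± 0.22 (edgeR adjusted p = 6.52e-08). Usp18, which limits type I interferon signals and removes ISG15, rose most, by 5.30 ± 0.27 on the log2 scale (edgeR adjusted p = 5.77e-09).

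Other genes known to answer interferons were also higher. All 16 tested genes of the interferon-gamma target list were called, as were 19 of 20 tested type I interferon targets. The count filter was met at rest by 11 and 14 of them, respectively, and of these 11 and 13 were higher. Icam1, an adhesion molecule that NF-kB is also known to induce, rose most in the first list, from 8, 10 and 16 counts to 4843, 5261, 4859 and 4886 (log2 fold change 8.85 ± 0.20, edgeR adjusted p = 5.46e-12). Neither Icam1 nor Mx1 below met the count filter at rest. The antiviral GTPase Mx1 led the second list, with 0, 1 and 0 counts after PBS and 117, 62, 20 and 24 after TNF. Its highest TNF library was replicate 1, the lowest library for Igtp, Ifi47, Iigp1 and Tgtp1.

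**Figure D5:**
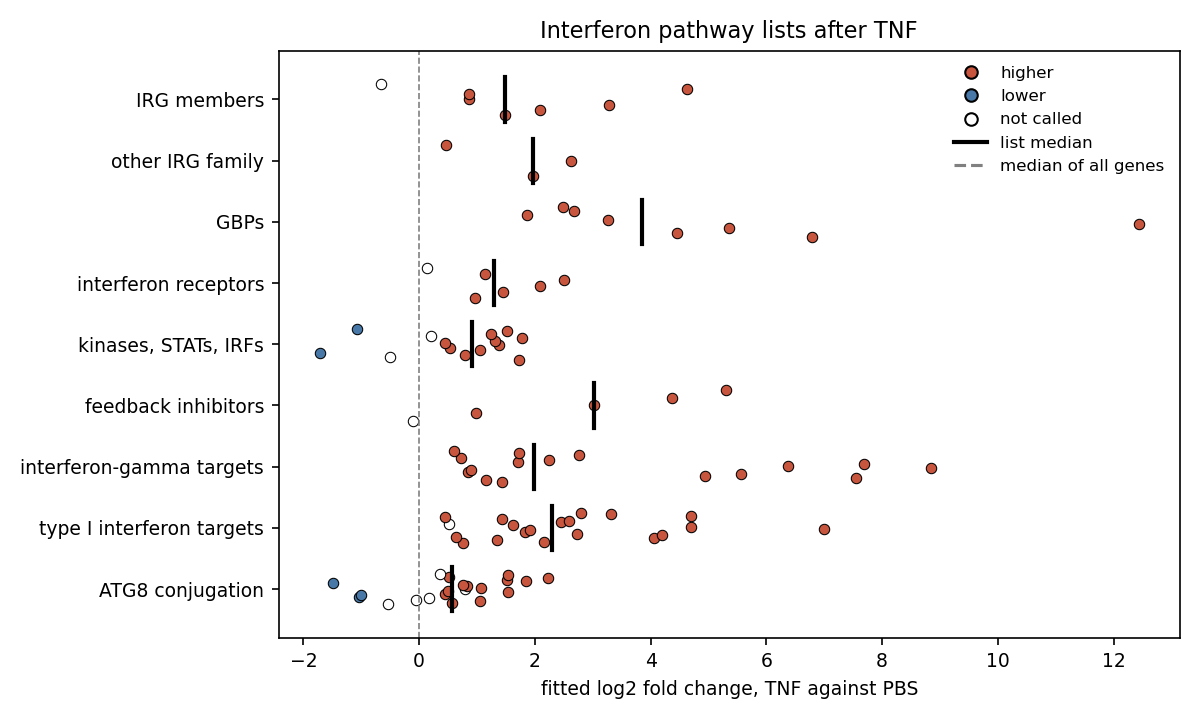
Each point is a tested gene at its fitted log2 fold change of TNF against PBS, in red for higher, blue for lower and white for not called, with a black bar at the median of each list and a dashed line at the median of all tested genes. The IRG members lie between -0.65 and 4.64 around a median of 1.48, and the range of the GBPs overlaps theirs; the rightmost point is Gbp5, whose fitted value is no bound because it had 0 counts after PBS.

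IRGs are known to find their vacuoles with the help of the ATG8 conjugation system, which joins ubiquitin-like ATG8 proteins to membranes. A list of 21 genes was taken for this system, for its cargo adaptors and for galectins, ubiquitin ligases and a Rab exchange factor that act at damaged or marked vacuoles. In this list 13 genes were higher and 3 lower, where 29.5% and 30.1% of all tested genes were. The median log2 fold change of the list was 0.57. With glmTreat against a 1.5-fold change, 7 genes of the list were higher. Atg16l1, which sets the place of conjugation and is known for its part in PC granules, rose from 27.6 ± 3.17 to 57.2 ± 4.33 CPM, a log2 fold change of 1.05 ± 0.12 (edgeR adjusted p = 4.29e-06). Its partner Atg5 was not called, at 0.17 ± 0.14 (edgeR adjusted p = 0.303). The adaptor Sqstm1 (p62) rose most, from 231 ± 22.8 to 1083 ± 104 CPM, a log2 fold change of 2.23 ± 0.14 (edgeR adjusted p = 1.28e-08). The adaptor Nbr1 fell most, from 349 ± 61.5 to 124 ± 8.67 CPM, a log2 fold change of -1.49 ± 0.12 (edgeR adjusted p = 2.58e-07). The other 2 lower genes, named after their values were seen, were Atg7 and Calcoco1.

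The cell identity of the libraries was checked against marker lists. The 10 PC markers summed to between 186395 and 307463 CPM after PBS and between 176278 and 320858 CPM after TNF. Their sum was thus high in every library. After TNF, 2 of the 10 were called higher and 2 lower, with a median log2 fold change of -0.29. Leukocytes also express IRGs, and 16 of 20 leukocyte markers had counts. Their summed level was 29.1 to 38.4 CPM after PBS and 50.9 to 63.1 CPM after TNF. That rise was carried by 1 gene, Cd14, picked out after its values were seen, which went from 4.22 to 30.2 CPM in the mean. Without Cd14 the sum was 25.2 to 33.3 CPM after PBS and 23.4 to 30.8 CPM after TNF. Of the 6 tested, Cd14 and S100a9 were higher and Ptprc, the pan-leukocyte CD45, was lower. S100a9 had 0 counts after PBS and reached the test through the TNF libraries. Cd3e, Gzmb and Tyrobp had 0 counts in every library. Other untested markers were seen mostly after TNF, among them, named after their values were seen, S100a8 with 0 counts after PBS and 32 after TNF, Gzma with 0 and 20, Csf1r with 1 and 14, Trac with 0 and 9, and Itgax with 0 and 6. Adgre1 went from 16 to 8. Stromal and endothelial markers summed to at most 4.28 CPM and were lower after TNF, and erythroid markers reached at most 0.236 CPM. Among markers of other epithelial cells, 6 of 8 tested enterocyte, 6 of 10 goblet, 9 of 9 tuft, 5 of 5 stem cell and 4 of 8 enteroendocrine markers were called lower after TNF, against 30.1% of all tested genes. The enterocyte marker Slc5a1 (log2 fold change 0.46) and the goblet marker Spdef (1.44), named after their values were seen, were called higher. The part of these shifts in the level of the members was not tested.

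The genes most like the members over the 7 libraries, by Pearson correlation with their mean standardised log2 CPM, were Gnl1 (r = 0.996), Arhgap23, 1110065P20Rik, Tmem165 and Polr1d (r = 0.985). Because the 2 groups differ, such likeness was common: 1521 of the 8529 genes with at least 10 CPM had r of at least 0.9.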

How the data were processed

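The authors deposited raw counts, whole numbers of reads per gene, from single-end sequencing of total RNA on an Element AVITI instrument. Per the labels, the submitters' processing notes name FastQC, Trimmomatic 0.39, STAR 2.7.10a and DESeq2, and the builds mm10 and mm39; for the counting program, annotation and strand use, the sources used here give no name. Of 55414 identifiers, 54749 (98.8%) were found in GENCODE M39, which gave symbols, coordinates and exon lengths. It can differ from the authors' annotation.

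Counts were tested in R 4.3.3 with edgeR 4.0.16 (robust quasi-likelihood fit, filterByExpr, TMM scaling, TNF against PBS over all 7 libraries, no covariates) and called at a Benjamini-Hochberg adjusted p under 0.05. The SE comes from the fold change and the F statistic. Folds against 0 counts use a floor of 3 counts over the group. RPKM is CPM per kb of exon. Sequence identities are from pairwise alignments in Biopython 1.88. The procedure was tested on simulated data. DESeq2 1.42.0, other scalings and filters, glmTreat, a replicate block and leaving out each library were alternatives.

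The members and gene lists were chosen with earlier results of these data known. Named are the members, the detected other IRG genes, the called genes with the largest rise and fall of each list, a set of pathway genes fixed by name (some items are not reported here) and the 5 genes most like the members; others are marked as chosen after their values were seen.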

Additional observations from a re-analysis of the deposited data

How the results depend on the processing

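The log2 fold changes of the 7 members, Gm12250, Gm5431 and Irgq did not reverse under any alternative that tested them. The directions of the other named genes were not compared in this way. Under the other scalings, without a filter and with the DESeq2 Wald test, 6 members were called higher, and with each library left out in turn 5 or 6 were. The count was 5 where Tgtp1 had too few counts to be tested (a filter of 1 CPM in 3 libraries, the replicate block, and without TNF replicate 2, 3 or 4) and with glmTreat against a 1.5-fold change, where Irgm2 was lost. With glmTreat, 2365 genes were called higher and 2574 lower, against 4229 and 4314 by the main test, 7 genes of the ATG8 list were higher and Irgq was not called (adjusted p = 0.860). Without a filter on low counts, 1 GBP gene was called lower. Leaving out each library in turn gave 3872 to 4170 genes called higher and 3791 to 4455 called lower. With scaling by total counts only, 3142 genes were higher and 4614 lower, and the median over all tested genes was -0.16 on the log2 scale; Irgm1 was then at 0.69 and all 6 members remained called. Deviations of the same-numbered PBS and TNF libraries correlated at -0.37, -0.04 and -0.21. Those of libraries with unlike numbers correlated at -0.25 to 0.40. With so few libraries, these values cannot decide whether mice were paired or shared a day of sorting. With the replicate numbers as a block, without TNF replicate 4, 3437 genes were higher and 3630 lower, and 5 of the 6 tested members were higher. Depth limits Tgtp1, Tgtp2 and Iigp1, which have few PBS counts. P-values measure the spread between mice.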

Other observations

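Another family of interferon-induced GTPases, the very large inducible GTPases (Gvins), went the other way in the same libraries. All 4 tested Gvin genes fell, and 4 of the 10 in the table had 0 counts. The 4 met the count filter in the PBS libraries, and 2 of them also met it in the TNF libraries, so the others reached the test through the group in which they were high. The largest fall was in 1 of 2 identifiers that carry the symbol Gvin5 (ENSMUSG00000109685), from 457, 553 and 880 counts to 4, 0, 2 and 2, a log2 fold change of -8.12 ± 0.37 (edgeR adjusted p = 1.42e-09). The summed Gvin level was 357.9 to 576.0 CPM after PBS and 5.10 to 8.79 CPM after TNF. These genes and pseudogenes are close copies, so the split of reads among them is uncertain.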
